A study of Mus musculus with 6 samples.

Results

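The 44 genes described here encode proteins of autophagy and of the lysosome, and they were taken by symbol from the hepatic expression table of WT and *Txndc5*-deficient (KO) mice, where all 44 were found among 16123 genes. Male mice described as 2 months old were fed a purified chow diet for 4 weeks and then fasted for 16 h. Their liver RNA gave 6 libraries, 3 per genotype, each from a pool of 3 mice. WT mice carried the strain label C57BL/6Rj and KO mice the label C57BL/6JRj-Txndc5<em2Mdnp>/Ciba, a whole-body line in which exon 3 of *Txndc5*, a protein disulfide isomerase of the endoplasmic reticulum, was deleted by genome editing and which descends from 1 founder male. The libraries held between 44040160 and 46050030 clean reads, of which 91.63% to 93.66% mapped to the genome. *Txndc5* itself was 29.7-fold lower in KO, at 90.8 against 2697 in WT. The hepatocyte marker *Alb* had the values 1329550 in WT and 1332580 in KO, so the defining marker of the labelled tissue was abundant in both.

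In macroautophagy, a membrane sac closes around cytoplasm and then fuses with lysosomes, whose acid hydrolases break the contents down. Fasting is a classical stimulus of this pathway in liver, because nutrient-poor cells switch off mTORC1, the kinase complex that restrains both the ULK1 kinase and the transcription factors TFEB and TFE3. These factors bind a short E-box-type element, the CLEAR element, in promoters of many lysosomal and autophagy genes.

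Promoter windows from RefSeq (GRCm38.p6, from 250 bases before to 50 bases after each start) were available for 37 of the 44 genes, and *Asah1*, *Atg12*, *Atg16l1*, *Becn1*, *Ctsb*, *Ctsh* and *Map1lc3a* had none. The core of the CLEAR element, TCACGTGA, which reads the same on both strands, was found in the windows of 5 of these 37 genes (13.5%), against 1.12% of the 27025 genes with a window and 2.05% of the 11179 genes with a window and an average of at least 1 in these livers. The shorter letters TCACGTG, searched on both strands and contained in the first motif, were in 12 of the 37 windows (32.4%). They were in 4.29% of all genes and in 6.74% of the 11179 genes averaging at least 1. The E-box CACGTG, contained in both, was in 15 windows (40.5%), in 8.09% of all genes and in 11.4% of the 11179. TCACGTGA preceded by G and followed by C was in none of the 37, in 0.37% of all genes and in 0.716% of the 11179. The stretches around the TCACGTGA matches are shown because they hold this core of the CLEAR element. They are written from 5′ to 3′ on the strand of the gene, with TCACGTGA in capitals.
*Gla*, chrX:134601153-134601255, minus strand: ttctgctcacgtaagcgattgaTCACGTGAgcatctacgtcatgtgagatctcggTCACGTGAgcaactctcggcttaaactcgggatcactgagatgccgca
*Atg3*, chr16:45158717-45158804, plus strand: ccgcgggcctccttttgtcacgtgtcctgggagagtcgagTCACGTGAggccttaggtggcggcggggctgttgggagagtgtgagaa
*Mcoln1*, chr8:3500433-3500520, plus strand: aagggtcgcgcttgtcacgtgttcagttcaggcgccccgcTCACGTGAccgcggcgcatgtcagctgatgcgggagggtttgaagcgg
*Ctsd*, chr7:142387879-142387966, minus strand: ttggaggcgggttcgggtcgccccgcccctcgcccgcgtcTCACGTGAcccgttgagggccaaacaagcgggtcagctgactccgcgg
*Ctsa*, chr2:164833720-164833792, plus strand: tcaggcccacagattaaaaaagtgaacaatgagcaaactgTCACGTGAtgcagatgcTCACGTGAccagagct

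The *Gla* window held the motif in 2 copies, 228 and 195 bases before the RefSeq start. The single copies of *Atg3*, *Mcoln1* and *Ctsd* lay 72, 46 and 99 bases before it. *Ctsa* also held 2 copies, one 13 bases before the start and one from base 5 of the transcript onward. Between the genotypes these 5 genes lay far apart. *Gla* had the highest and *Atg3* the lowest ratio of KO over WT among the 44, and the other 3 lay within 0.07 of 0 on the log2 scale, with *Ctsd* at -0.07. The median log2 ratio of the 5 genes was -0.05, and that of the matched genes without the motif was 0.03.

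The expression table gives 1 value per genotype, on the scale of reads divided by a size factor that puts the libraries on 1 depth scale. The 3 libraries of a genotype are not given singly, so the values below have no error between pools, no replicate check and no test. The exception is where reads per library are given for a weakly expressed gene. The ratio of the KO value to the WT value was taken on the log2 scale, and a gene counted as higher or lower when this ratio was at least 0.25 in size. The deposited values of weakly expressed genes also lie closer together than their libraries do. This was checked in genes whose recovered normalized reads summed to at least 60. In 97.9% of these the deposited ratio was nearer 0 than that of the recovered means. For *Gla* the deposited values were 37.9 in WT and 57.5 in KO, where the means of the recovered libraries were 36.2 and 59.2. A deposited value is thus not the plain mean of the 3 libraries of its genotype. More strongly expressed genes could not be checked in this way.

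As a group, the 44 genes differed little between WT and KO livers. Their median log2 ratio was 0.02, with 23 ratios above 0 and 21 below. Of those below, 7 changed sign when centred on the median of all genes. The median of the 14106 genes averaging at least 1 was -0.05, and 57.4% of them had a ratio at or below that of *Atg7*, -0.001. Of the 44, 7 (15.9%) passed the limit of 0.25, where 37.6% of those 14106 genes did. Higher in KO were *Gla*, *Atg14*, *Asah1*, *Arsb* and *Psap* (11.4%, against 13.9% of all genes), joined by *Lipa*, *Arsa* and *Ulk1* when the ratios were centred on the median of all genes, and lower were *Atg3* and *Wipi1* (4.55%, against 23.6%). The 44 genes are strongly expressed, with a median value of 1042 against 100.4 over all genes, and among the 7063 genes averaging at least 100 the share past the limit was 27.3%, against 6 of 43 of the genes described here. Their values summed to 107822 in WT against 110628 in KO (log2 ratio 0.04). At a limit of 0.5, *Gla* and *Atg3* remained past it, against 11.5% of all genes, and at a limit of 1 there was none, against 0.879%.

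**Figure D1:**
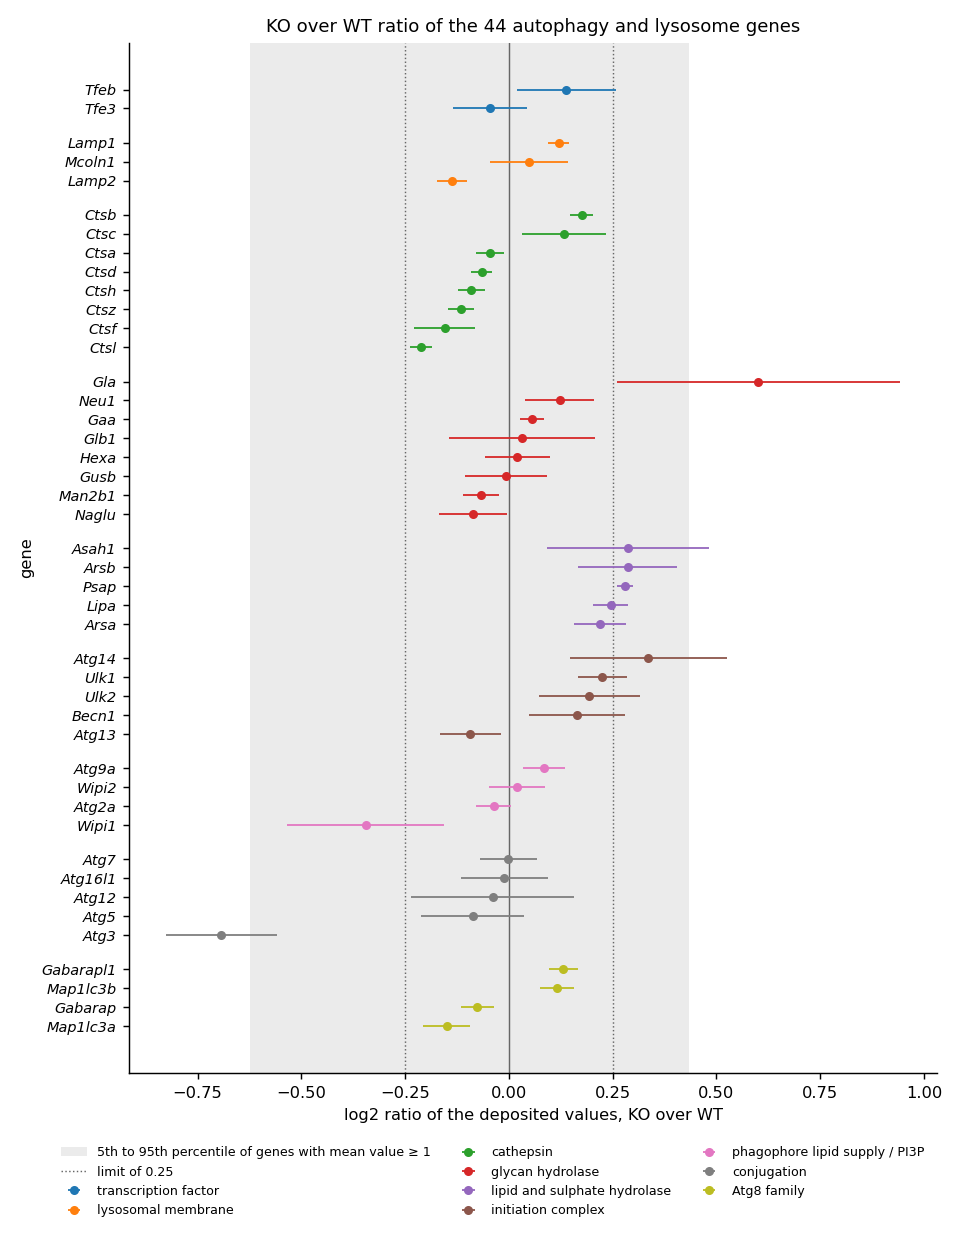
Log2 ratio of the KO value over the WT value for each of the 44 genes, grouped by role. Points are the ratios, horizontal lines their 95% interval from counting error alone, dotted lines the limit of 0.25 and the grey band the 5th to 95th percentile (-0.62 to 0.43) of genes averaging at least 1; *Gla* lies above that band, *Atg3* below it and the other 42 within it.

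**Figure D2:**
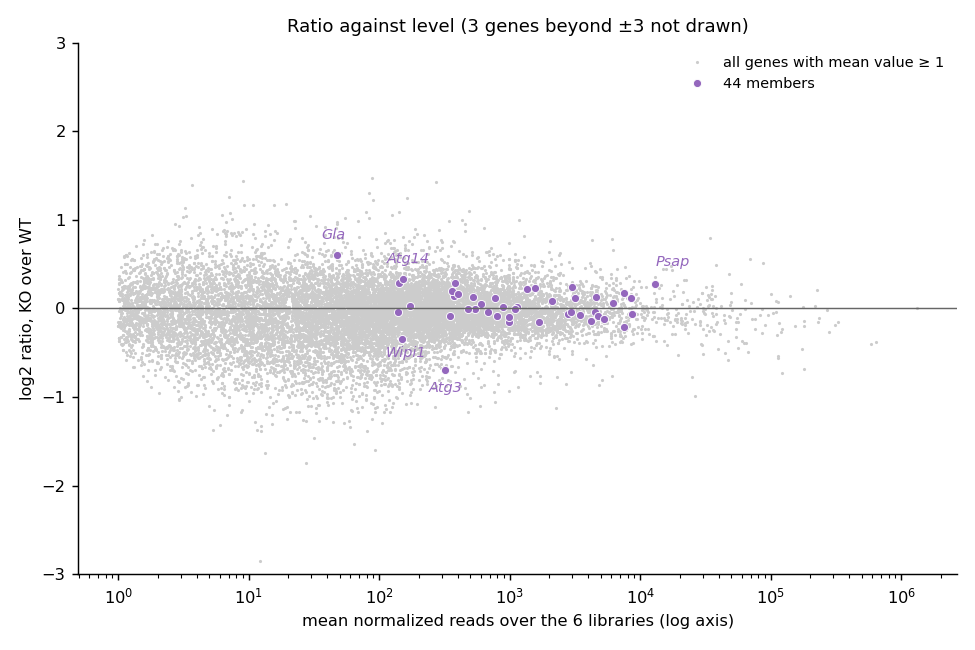
Log2 ratio of KO over WT (vertical axis) against the mean normalized reads over the 6 libraries (horizontal log axis), with all genes averaging at least 1 in grey and the 44 genes in purple. The purple points lie mostly to the right, with 22 of 44 at a mean of at least 1000 where 12.5% of all genes are, and close to 0, with their 25th and 75th percentiles at -0.08 and 0.15.

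Both transcription factors of the group stayed within the limit, on either side of 0. *Tfeb*, the master regulator of lysosomal genes, had 352.9 in WT against 388.5 in KO (log2 ratio 0.14). *Tfe3*, its relative in the MiT family, had 687.7 and 666.0 (log2 ratio -0.05). Counting error alone gave these ratios a 95% half-width of 0.12 and 0.09, the latter wider than the ratio of *Tfe3* is large. The spread between pools is not known for either gene, so neither ratio was tested against an even one.

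Proteins of the lysosomal membrane came next. *Lamp1*, the gene of the abundant glycoprotein that lines the lysosomal limiting membrane, had 8155 in WT and 8865 in KO (log2 ratio 0.12), and *Lamp2*, whose product takes part in chaperone-mediated autophagy, had 4386 and 3987 (log2 ratio -0.14). Both kept within the limit and pointed in opposite directions. *Mcoln1*, which encodes a calcium channel of the lysosome, had 592.6 and 612.8, with a log2 ratio of 0.05. Per kb of the deposited gene length, which allows levels to be compared between genes, *Lamp1* had a level of 3801 and *Mcoln1* of 296, a 12.9-fold range within this role.

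None of the 8 cathepsins, the proteases of the lysosome, passed the limit. Of all genes averaging at least 1, 57.4% had a ratio at or below that of *Atg7*, -0.001. Of the 8 cathepsin ratios, 6 were below 0, or 5 after centring on the median of all genes, where *Ctsa* changed sign. The median of the 8 was -0.08. The lowest belonged to *Ctsl*, a cysteine protease, with 8105 in WT and 6997 in KO (log2 ratio -0.21), and the highest to *Ctsb*, another cysteine protease, with 7089 and 8003 (log2 ratio 0.17). Exons of *Ctsb* overlap those of *Fdft1*, squalene synthase, on the opposite strand, which had 889 in WT and 1299 in KO (log2 ratio 0.55), and whether reads were assigned by strand is not given in the sources used here. By level per kb, *Ctsd*, the aspartic protease cathepsin D, was the highest at 4358 and *Ctsc*, the dipeptidyl peptidase that activates serine proteases, the lowest at 73.5. Values of *Ctsd* were 8821 in WT and 8427 in KO, and those of *Ctsc* were 498 and 546. Overlapping exons were also annotated for other cathepsins. *Ctsl* overlaps the pseudogene *Gm49230* on its own strand and *Gm47123* on the opposite strand, and *Ctsd* overlaps *Gm49369* on its own strand. On the opposite strand *Ctsa* overlaps *Neurl2* and *Pltp*, and *Ctsz* overlaps *Nelfcd*.

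Glycan-degrading hydrolases held the gene with the highest ratio and otherwise stayed near 0. *Gla* encodes alpha-galactosidase A, the enzyme lacking in Fabry disease, and lies on chromosome X from 134588149 to 134601125 (GRCm38, minus strand). Its value was 37.9 in WT against 57.5 in KO (log2 ratio 0.60, 1.52-fold), and no other annotated gene shares its exons. The other 7 (*Neu1*, *Gaa*, *Glb1*, *Hexa*, *Gusb*, *Man2b1* and *Naglu*) had log2 ratios between -0.09 and 0.12. *Gaa*, acid alpha-glucosidase, which degrades lysosomal glycogen, was the most abundant of them per kb, at 1742, with 6032 in WT against 6268 in KO. *Gla* was the least abundant, at 15.7 per kb, which is also the lowest level of all 44 genes.

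*Gla* was the single gene of the 44 for which reads per library could be recovered. Reads are whole numbers, so for genes with a sum of up to 400 normalized reads the mean over the 6 libraries can be resolved into the reads of each, and the next gene, *Atg12*, had a sum of 834. No pool number goes with a recovered library, so each is named by its genotype and size factor. The KO libraries (size factors 1.31, 1.04 and 0.886) held 57, 64 and 64 *Gla* reads, which are 43.4, 61.8 and 72.3 normalized reads. Among the WT libraries (size factors 1.22, 0.879 and 0.818) there were 42, 31 and 32 reads, or 34.3, 35.3 and 39.1 normalized reads. The WT libraries were close together, the KO libraries were spread, and every KO library lay above every WT library, as in 3.03% of the 3296 genes compared in this way.

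KO averaged 59.2 ± 14.6 normalized reads (SD, n = 3) and WT 36.2 ± 2.56 (SD, n = 3), so the log2 ratio of the means was 0.71. A two-sided exact permutation test gave *p* = 0.1, the smallest *p* value that 3 libraries against 3 can give. In limma, fitted over the 3296 recovered genes summing to at least 60 normalized reads, the log2 difference was 0.66 with a standard error of 0.37 (Benjamini-Hochberg adjusted *p* = 0.999), so *Gla* did not pass the test. No gene of the 3296 did at an adjusted *p* of 0.05, and 54 (1.64%) had an unadjusted *p* below 0.05. In each genotype the library with the largest size factor held the most normalized reads of weakly expressed genes (128977 in KO and 160000 in WT, against 100816 to 110179 in the other 4), whereas *Gla* was lowest in that library in both genotypes. With a term for that library, chosen after the data were seen, the limma log2 difference of *Gla* was 0.66 again (limma adjusted *p* = 0.643). Without the KO library with a size factor of 0.886 it was 0.51, and without the one with 1.31 it was 0.87.

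**Figure D3:**
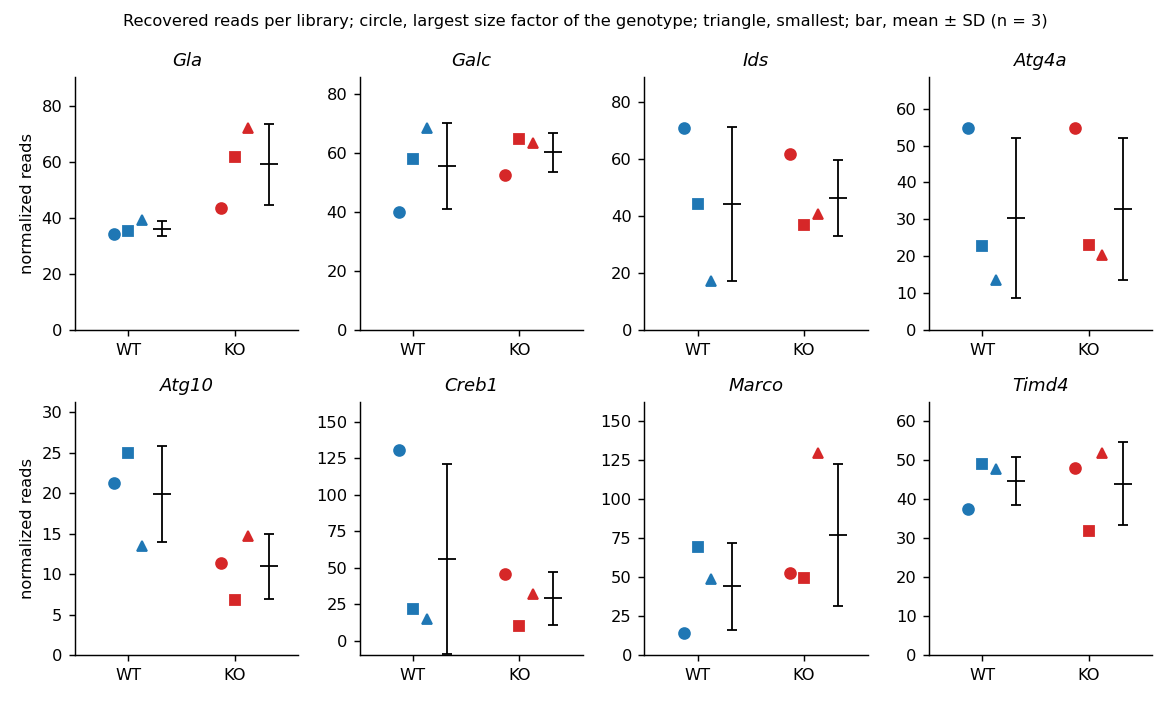
Normalized reads per recovered library (vertical axes) for *Gla* and 7 weakly expressed genes of the pathway and marker lists, with WT in blue and KO in red. Circles mark the library with the largest size factor of each genotype, triangles the smallest, and bars the mean ± SD of 3 libraries; of the 8 genes, *Gla* alone has every KO library above every WT library.

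The 5 genes for breakdown of lipids and sulphate esters all had a KO value above the WT value, with log2 ratios from 0.22 to 0.29, and 3 of them passed the limit, or all 5 when the ratios were centred on the median of all genes. *Psap* encodes prosaposin, the precursor of the saposins that present sphingolipids to their hydrolases, and was the most abundant of the 44 genes per kb, at 4899. Its values were 11804 in WT and 14329 in KO (log2 ratio 0.28, 1.21-fold), and the 95% half-width from counting error was 0.02. *Asah1*, acid ceramidase, had 128.1 and 156.3 (log2 ratio 0.29). *Arsb*, the arylsulfatase that degrades dermatan sulphate, had 345.5 and 421.2 (log2 ratio 0.29), and its exons overlap the noncoding genes *Gm26527* and *Gm47210* on the opposite strand. Just under the limit came *Lipa*, lysosomal acid lipase, which frees cholesterol and fatty acids from lipoprotein and droplet lipids, with 2729 and 3235 (log2 ratio 0.24), and *Arsa*, which degrades sulfatide, with 1257 and 1465 (log2 ratio 0.22) and an antisense gene, *C230037L18Rik*, overlapping its exons. *Psap*, the gene just inside the limit, and *Lipa*, the one just outside, thus differed by less than 0.05 on the log2 scale. Counting error is small beside these ratios for *Psap*, *Lipa* and *Arsa*, but the spread between pools is not known for any of the 5 genes.

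Initiation of autophagy depends on the ULK1 kinase complex and on the lipid kinase complex that holds Beclin 1 and ATG14. Of the 5 genes of this role, 4 had ratios above 0, with a median of 0.19, and 1 passed the limit. Among all genes averaging at least 1, 57.4% had a ratio at or below that of *Atg7*, -0.001. *Atg14*, the subunit that directs the lipid kinase to the site of autophagosome formation, had 133.6 in WT and 168.7 in KO (log2 ratio 0.34), and its exons overlap the antisense gene *Gm49004*. *Ulk1* had 1442 and 1686 (log2 ratio 0.23) and *Ulk2*, its paralogue, 338.5 and 387.1 (log2 ratio 0.19). *Becn1*, which encodes Beclin 1, had 375.4 and 420.8 (log2 ratio 0.16). The exception was *Atg13*, the adaptor of the ULK1 complex, with 1012 and 950 (log2 ratio -0.09). Per kb, *Ulk1* was the highest of the 5 at 299.96 and *Atg14* the lowest at 43.6.

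Downstream of the lipid kinase, membrane supply and the effectors that bind its product gave ratios on both sides of 0. *Wipi1*, which encodes such an effector, had 168.1 in WT and 132.3 in KO (log2 ratio -0.35), and lies on chromosome 11 from 109573331 to 109611967 (GRCm38, minus strand) with no overlapping exons. Its paralogue *Wipi2*, whose product recruits ATG16L1, had 1131 and 1146 (log2 ratio 0.02). *Atg9a*, the scramblase carried by the vesicles that seed the membrane, had the highest level per kb of this role, 544, with values of 2035 and 2158 (log2 ratio 0.08). For the lipid transfer protein gene *Atg2a* the log2 ratio was -0.04.

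The conjugation enzymes attach Atg8-family proteins to lipid. All 5 ratios were below 0, but 3 of them, those of *Atg7*, *Atg16l1* and *Atg12*, lay above the median of all genes and changed sign when the ratios were centred on it. *Atg3* stood apart. It encodes the E2-like enzyme that transfers LC3 to phosphatidylethanolamine, lies on chromosome 16 from 45158785 to 45188538 (GRCm38, plus strand), and had 392.8 in WT against 243.0 in KO (log2 ratio -0.69), which is 0.619 of the WT value. Among all genes averaging at least 1, 3.76% had a lower ratio. No other annotated gene overlaps its exons, and the 95% half-width from counting error was 0.13. *Atg7*, the E1-like enzyme that acts before it, had 1102 and 1101 (log2 ratio -0.00), and *Atg5*, part of the complex that acts with it, 358.7 and 337.5 (log2 ratio -0.09). Of the other parts of that complex, *Atg12* had 140.9 and 137.1 and *Atg16l1* 484.8 and 481.0.

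The Atg8 family, whose lipid-bound products coat the autophagosome and hold cargo receptors, was evenly divided. *Gabarapl1* had 4358 in WT and 4773 in KO (log2 ratio 0.13) and *Map1lc3b*, the gene of the usual LC3 marker protein, 3059 and 3312 (log2 ratio 0.11). *Gabarap* had 3532 and 3352 (log2 ratio -0.08) and *Map1lc3a* 1767 and 1593 (log2 ratio -0.15). None passed the limit. Their levels per kb spanned 1.94-fold, from 1580 for *Map1lc3a* to 3068 for *Gabarap*, the narrowest range of any role with more than 2 genes, where cathepsins spanned 59.3-fold and glycan hydrolases 110.7-fold.

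**Figure D4:**
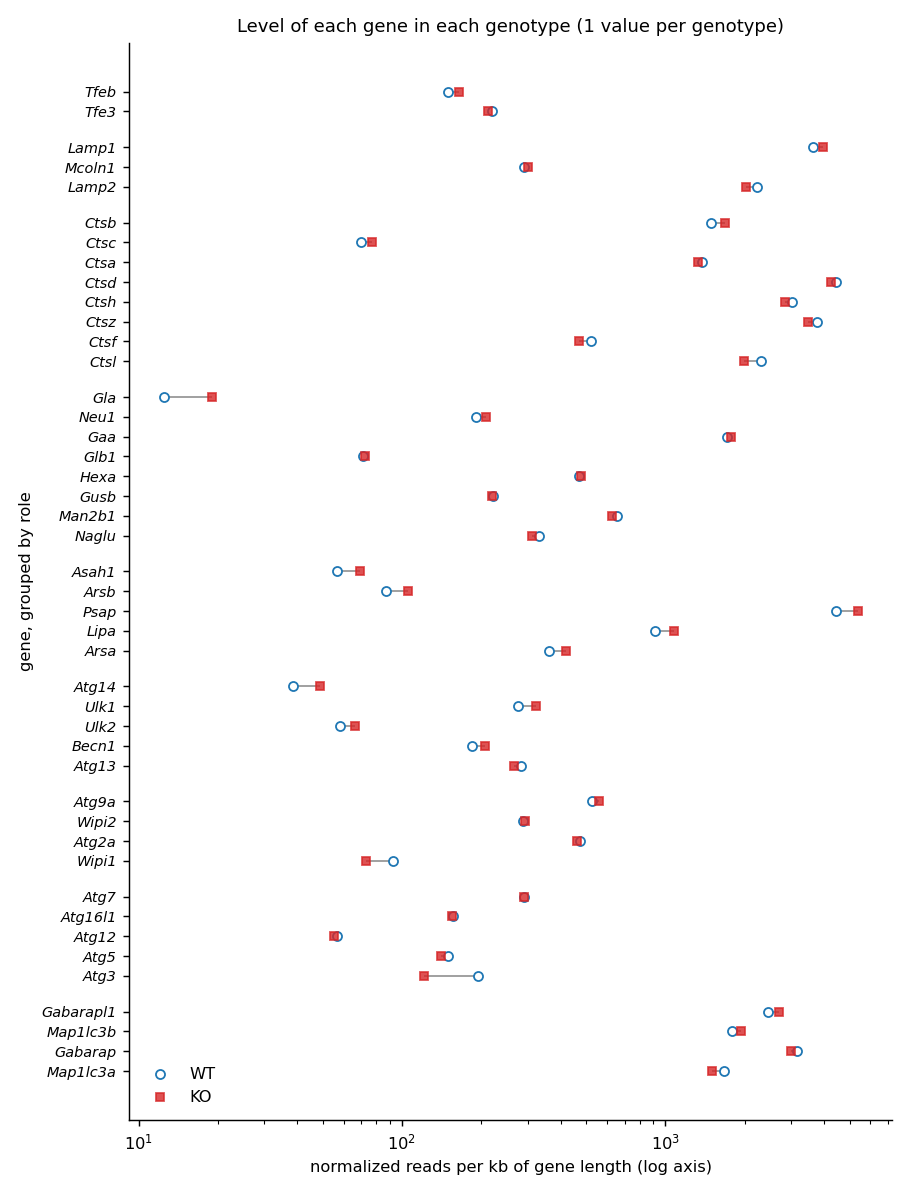
Normalized reads per kb of gene length (horizontal log axis) for each of the 44 genes, with the WT value as an open circle and the KO value as a red square, joined by a grey line. Levels run from 15.7 for *Gla* to 4899 for *Psap* as means of both genotypes, and the gap between genotypes is small beside the range between genes.

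A wider set of 169 genes of the pathway was examined in 8 lists, of which *Castor1*, *Retreg1* and *Rragb* were not found in the table. Of the 166 found, 27 (16.3%) were higher in KO and 19 (11.4%) lower, with a median log2 ratio of 0.04, against 13.9% and 23.6% of all genes. Mannose 6-phosphate sorting, the route by which new hydrolases reach lysosomes, had 4 of 12 genes higher and none lower (median 0.12). These included *Igf2r*, a receptor of that tag, with 335.1 in WT and 466.6 in KO (log2 ratio 0.48), and *Gnptab*, a subunit of the enzyme that makes it, with 75.8 and 105.4 (log2 ratio 0.48). Further lysosomal hydrolases had 5 of 26 genes higher and 1 lower (median 0.10), among them *Idua*, alpha-L-iduronidase, with 77.6 and 107.2 (log2 ratio 0.46), and *Pla2g15*, the lysosomal phospholipase A2, with 258.4 and 343.7 (log2 ratio 0.41).

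Lysosomal membrane and transport genes had 3 of 20 higher and 1 lower (median 0.05). In that list *Mfsd8*, which encodes a protein of the lysosomal membrane, had 64.6 in WT and 50.2 in KO (log2 ratio -0.36). Its recovered normalized reads were 73.1, 36.7 and 36.1 in KO and 79.2, 76.2 and 42.8 in WT, by falling size factor, and the genotypes overlapped (two-sided exact permutation test, *p* = 0.2). The vacuolar ATPase, the proton pump that acidifies the lysosome, had 2 of 16 genes higher and none lower (median 0.03), and these were *Atp6v0a2* with 470.8 and 603.8 (log2 ratio 0.36) and *Atp6v1c1* with 226.9 and 274.4 (log2 ratio 0.27). Each of these 4 lists held more genes past the limit upward than downward, on counts as small as 2 of 16. Over all genes the larger share was downward, with 13.9% higher and 23.6% lower. Among genes averaging at least 100 these shares were 11.1% and 16.2%. The balance of the lists was not tested.

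The nutrient-sensing list leaned downward, as did all genes, of which 13.9% were higher and 23.6% lower. Of 24 genes of mTORC1, the Rag GTPases and Ragulator, 3 were higher in KO and 7 lower (median -0.08). *Fnip2*, a partner of folliculin in that pathway, had 78.7 in WT and 141.6 in KO (log2 ratio 0.85), and *Rheb*, the GTPase that activates mTORC1, had 209.2 and 144.0 (log2 ratio -0.54). Upstream regulators had 3 of 20 genes higher and 4 lower (median -0.07). The lowest ratio of all 8 lists was that of *Trp53inp1*, a p53-induced gene whose product binds LC3, with 115.8 and 44.5 (log2 ratio -1.38).

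Among further genes of the autophagy machinery, 3 of 32 were higher and 4 lower (median 0.05). *Rb1cc1*, which encodes the scaffold FIP200 of the ULK1 complex, had 141.2 in WT and 80.7 in KO (log2 ratio -0.81), unlike its partner genes *Ulk1*, *Ulk2* and *Atg13* above, which stayed within the limit. *Atg10*, the E2-like enzyme of the ATG12 conjugation, had 18.7 and 12.2 (log2 ratio -0.62). Its recovered normalized reads were 11.4, 6.76 and 14.7 in KO and 21.2, 25.02 and 13.5 in WT, in the order of falling size factor, so the genotypes overlapped (two-sided exact permutation test, *p* = 0.2). Autophagy receptors had 4 of 16 genes higher and 2 lower (median -0.00), led by *Tollip*, with 460.1 and 686.1 (log2 ratio 0.58), and *Tax1bp1*, with 820.1 and 559.7 (log2 ratio -0.55), both of which bind ubiquitinated cargo.

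Reads were unevenly spread over the WT libraries in another regulator. *Creb1*, a transcription factor that induces autophagy genes in fasted liver, had 51.3 in WT and 33.3 in KO (log2 ratio -0.62). Its WT libraries held 130.6, 21.6 and 14.7 normalized reads and its KO libraries 45.7, 9.65 and 31.6. The mean of the WT libraries thus rested on the library with a size factor of 1.22. The other 2 WT libraries lay within the KO range (two-sided exact permutation test, *p* = 0.8).

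**Figure D5:**
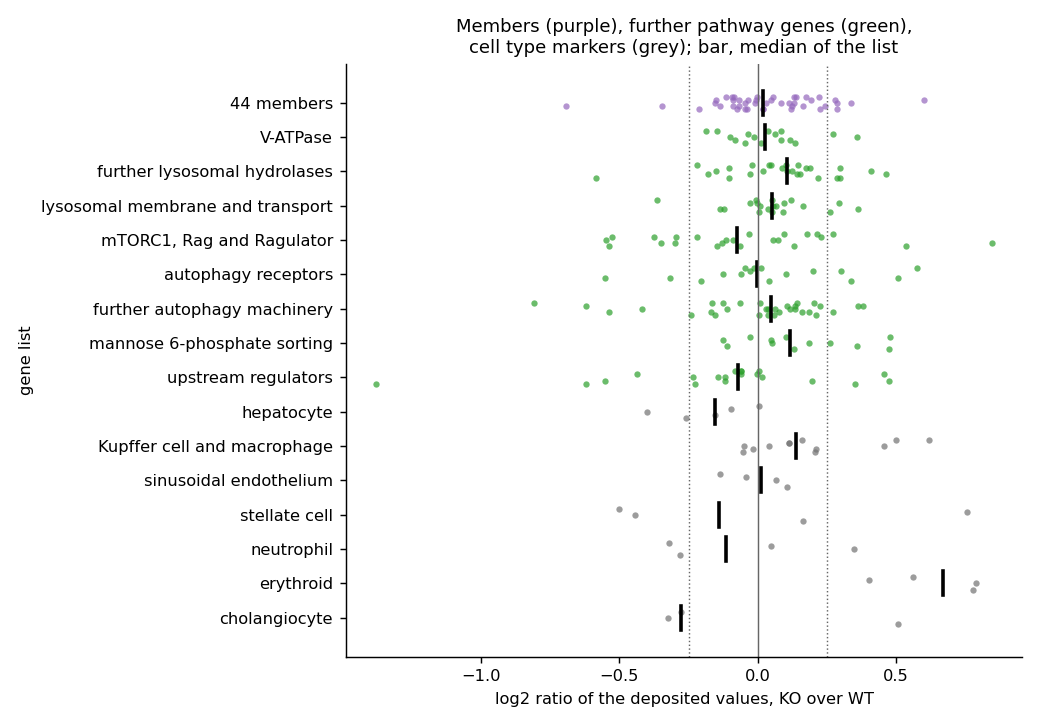
Log2 ratio of KO over WT (horizontal axis) for the 44 genes (purple), the 8 further pathway lists (green) and 7 lists of cell type markers (grey). Each point is a gene, thick bars are list medians and dotted lines the limit of 0.25; the median of the 44 genes is 0.02 and that of the erythroid markers 0.67.

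Lysosomal genes are expressed by every cell of the liver, with macrophages rich in them, so the marker lists of other cells were read beside these values. In bulk tissue, fewer cells of a type and less RNA per cell cannot be told apart. The 12 Kupffer cell and macrophage markers had a median log2 ratio of 0.14, with 9 of 12 ratios above 0. Past the limit, 3 were higher and none lower. Their values summed to 6058 in WT and 6729 in KO (log2 ratio 0.15). *Cd5l* had 831.8 and 1142 (log2 ratio 0.46), while the Kupffer cell gene *Clec4f* had 895.1 and 864.6 (log2 ratio -0.05). The 4 erythroid markers were all higher in KO, with sums of 87361 and 136131 (log2 ratio 0.64). The 4 stellate cell markers had sums of 1923 and 1649, with 2 genes above 0 and 2 below. The most abundant of them was *Dcn*, with 1296 and 915 (log2 ratio -0.50), whereas *Col1a1* had 85.6 and 144.5 (log2 ratio 0.76). Sums were 1799 and 1754 for 4 markers of sinusoidal endothelium, 59.7 and 53.9 for 3 cholangiocyte markers, and 13.9 and 14.1 for 4 neutrophil markers. The neutrophil markers had low values, at most 6.22 in either genotype, and log2 ratios from -0.32 to 0.35, with 1 higher and 2 lower. Of the 5 hepatocyte markers, none was higher and 2 were lower (median -0.15). The part of these cell types in the ratios of the lysosomal genes was not tested.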

How the data were processed

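The deposited expression table gives 1 signal value per gene and genotype for 16123 genes. The values are on the scale of reads after division by a size factor from DESeq2. The 3 libraries of a genotype are not given singly, and for *Gla* the value was not their plain mean. Clean read counts per library and percent values of mapping were deposited as the sequencing service gave them. The labels name HISAT2, StringTie, Cufflinks, GATK, Bowtie2, RSEM and mm10 without their roles. A further 3 deposited columns hold the authors' own fold changes and *p* values and were not used, nor was the table of splicing events.

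The ratio of the KO value to the WT value was taken with no pseudocount, and shares over all genes used those averaging at least 1. As 1 value per genotype has no residual spread, these ratios were not tested. A 95% half-width covers counting error only. Reads per library were recovered for 8024 of 8081 genes with up to 400 normalized reads (99.3%) by enumerating whole numbers, and a recovered library was given the genotype whose labelled column is higher in genes with a single read, from that library. Recovered reads, 84136 to 195959 per library, were compared with exact permutation tests and with limma 3.58.1 (R 4.3.3) on log2(normalized reads + 1). Gene positions are from GENCODE M21 (GRCm38). Pools hold 3 mice each, so *p* values measure the spread between pools.

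The genes, lists and limits were chosen with earlier results of these data known. Named with values are *Tfeb*, *Tfe3*, the 10 largest ratios, resolved genes, the highest and lowest per kb of each role, genes whose promoter is shown, and the largest 2 ratios of each further list among genes averaging at least 10, except 1 gene that is not reported here; *Cd5l*, *Clec4f*, *Dcn*, *Col1a1*, *Fdft1* and the remaining genes of the 44 were added after their values were seen. Alternatives were pseudocounts, centring, other limits and filters, and leaving out each recovered library.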

Additional observations from a re-analysis of the deposited data

How the results depend on the processing

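With pseudocounts of 1 and 10 the same number of genes, 7, passed the limit of 0.25, and among the 44 ratios that of *Gla* moved most, to 0.49 with a pseudocount of 10, which was not tried on the further lists. At limits of 0.5 and 1 the number was 2 and 0. Centred on the median of all genes, -0.05, the median log2 ratio of the 44 genes was 0.067. In that setting 10 genes passed (8 higher, with *Lipa*, *Arsa* and *Ulk1* gained, and 2 lower), and 7 ratios within the limit changed sign, those of *Atg12*, *Atg16l1*, *Atg2a*, *Atg7*, *Ctsa*, *Gusb* and *Tfe3*. The share of all genes past the limit was 33.9% with no filter, 35.2% at a mean of at least 10 and 27.3% at a mean of at least 100, the last chosen after the data were seen. In limma, 0 genes passed at an adjusted *p* of 0.05 with a pseudocount of 0.5, with a minimum sum of 20 and when each recovered library was left out in turn, the last with 21 to 169 genes at an unadjusted *p* below 0.05, and a term for the libraries of largest size factor, also chosen after the data were seen, gave 2 and 251; the cause was not tested. The log2 difference of *Gla* ran from 0.51 to 0.87 over the libraries left out, with limma adjusted *p* values of 0.938 and above. No paired analysis was possible because the WT and KO labels share a single pool number and the recovered libraries carry none. Depth limits *Gla* most, since its counting half-width, 0.34, was the widest of the 44 genes.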
